A study of Mus musculus with 24 samples.

Results

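The genes described here are 9 transcription factors with roles in both blood and endothelium: Tal1, Lyl1, Lmo2, Gata2, Gata3, Gata6, Hhex, Mef2c and Runx1. They are a list of names, drawn up with earlier results of these data known, and are 9 of the 22282 genes obtained by summing the deposited FPKM (fragments per kilobase of transcript, scaled to the upper quartile of the library) over the RefSeq transcripts of each mouse gene symbol. Transcripts without a symbol are among these genes, each under its accession. All 9 had a mean FPKM of at least 1 over the 24 libraries and so entered every test of the main fit.

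The study asked whether mouse amniotic cells can be turned into endothelial cells (ECs), and sequenced mRNA from 24 libraries, 3 independent isolates in each of 8 groups, all of C57BL/6J background. MACs were amniotic cells cultured from E11.5-E13.5 embryos. RACVECs were MACs carrying lentiviral Etv2, Erg and Fli1, which belong to the Ets family of transcription factors, each driven by the PGK promoter, and grown through conversion in endothelial medium with a TGF-β receptor inhibitor. Akt-RACVECs carried the same 3 Ets factors plus myristoylated, constitutively active Akt1. Sox17-RACVECs were RACVECs given Sox17 by a lentivirus and selected in puromycin. Akt-MACs were MACs given active Akt alone, with no lentiviral Ets factor. Akt-LECs and Akt-liver ECs were lung and liver ECs captured on beads by CD31, given the same active Akt so that they survive culture, and re-sorted for VE-cadherin and CD31. LSECs were liver ECs sorted directly after an injection of anti-VE-cadherin antibody and isolectin, with no culture and no transgene. The amniotic cultures are mixed cells, so every value is an average over whatever cells a culture held. In such bulk libraries fewer cells of a type and less RNA per cell cannot be told apart.

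Tal1 and Lyl1 are closely related basic helix-loop-helix proteins that bind E-box DNA together with E proteins, and Lmo2, which does not bind DNA itself, bridges them through Ldb1 to a GATA factor such as Gata2. This complex acts in the embryonic precursors of blood and endothelium, and Ets factors are among its known upstream regulators. Hhex is a homeobox factor and Mef2c a MADS-box factor of early endothelium, Gata3 and Gata6 are further GATA factors with wider tissue ranges, and Runx1 is needed for blood cells to arise from haemogenic endothelium. Several of these genes are also used by macrophages, megakaryocytes, mast cells or lymphocytes, so markers of those cells are given below.

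Before any comparison, the libraries were compared with their labels. Etv2 FPKM lay between 127 and 860 in 8 of the 9 libraries from Ets-transduced cells and was listed at 0 in the other one, the library labelled Sox17-RACVEC 2, and in all libraries of the other groups. That library also held Erg at 387 FPKM against 4.49 and 0 in the other Sox17-RACVEC libraries, so results that rest on it are given with and without it. Sox17 was 5.09, 40.1 and 200.06 FPKM in Sox17-RACVECs 1, 2 and 3, 0 in all RACVECs and 12.0 to 83.5 in Akt-RACVECs, so that library 1 was low for a cell given Sox17. Akt1 was 1323 FPKM in the library labelled Sox17-RACVEC 2, the highest of the 24. It was 884 and 916 FPKM in Sox17-RACVECs 1 and 3, 607 to 694 in RACVECs and 872 to 1280.5 in Akt-RACVECs. Akt1 was therefore above the RACVEC range in all Sox17-RACVEC libraries. Erg was 0.90 to 13.8 FPKM in RACVECs, though they were given it, and 395 to 1002 in Akt-RACVECs. Fli1 was 178 to 257 FPKM in RACVECs and at most 1.61 in MACs. In Akt-MACs 1, 2 and 3, which were not given it, Fli1 was 2.36, 30.2 and 84.4 FPKM. The 13 endothelial markers summed to between 85.0 and 219 FPKM in MACs and Akt-MACs, 2820 and 5874 in RACVECs, and 7466 and 29532 in all other groups. The 16 macrophage markers summed to 1347, 16596 and 48472 in Akt-MAC 1, 2 and 3, to between 13834 and 22324 in LSECs, and to at most 2573 elsewhere. Akt-LEC 1 and Akt-liver EC 1 stood apart from their groups, with Csf1r (the macrophage growth factor receptor) at 49.6 and 55.9 FPKM and Col1a1 (fibroblast collagen) at 1065 and 556 FPKM. Megakaryocyte and mast cell markers (6 genes) summed to between 6.80 and 21.4 FPKM in MACs and reached 942 in LSECs, and T and NK cell markers and B cell markers summed to at most 65.5 and 97.6, both highest in LSECs. Gata1, the factor that defines erythroid and megakaryocytic cells, was listed at 0 in all 24 libraries.

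**Figure D1:**
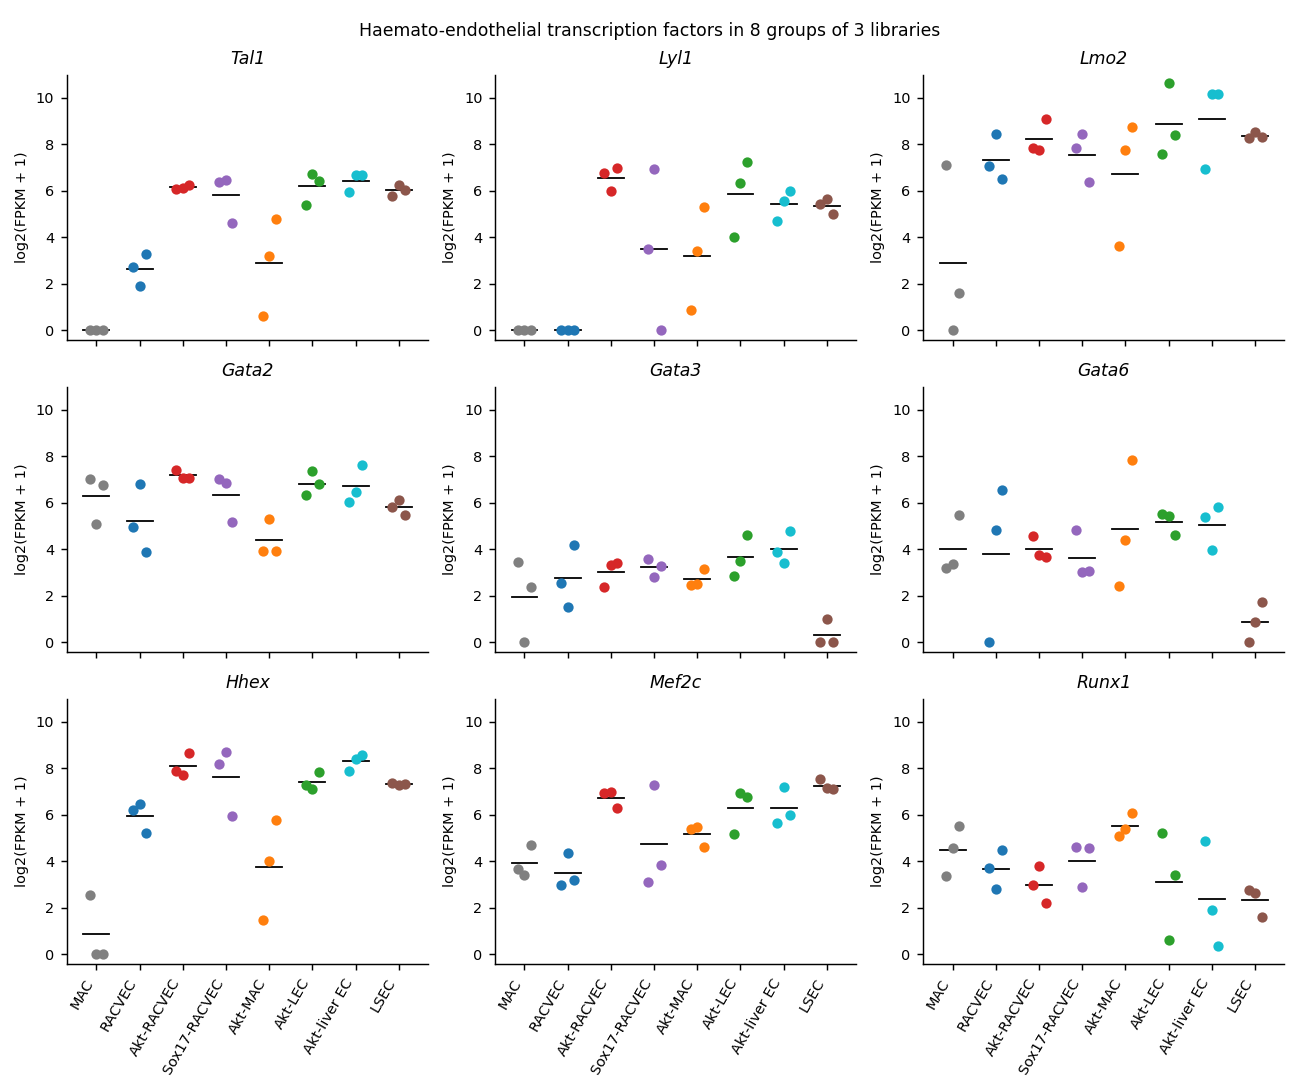
Each panel plots log2(FPKM + 1) of one gene in the 8 groups, with 1 point per library and a bar at the group mean. Tal1 is listed at 0 in all 3 MAC libraries and sits highest in Akt-liver ECs, Akt-LECs and Akt-RACVECs, Lyl1 is listed at 0 in MACs and RACVECs, and Gata3 and Gata6 have their lowest group means in LSECs.

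The first question was which of these factors differ between MACs and RACVECs. RACVECs received the Ets factors and were also grown in endothelial medium with a TGF-β receptor inhibitor. The study describes another medium for amniotic cells before conversion. Such differences in culture cannot be told apart from the Ets factors here. Hhex was the single member that passed the threshold given below. Its FPKM was 4.96, 0 and 0 in MACs and 72.4, 88.4 and 36.4 in RACVECs. Every RACVEC library was above every MAC library, and on the log2(FPKM + 1) scale used for every fold change below the difference was 5.11 ± 0.86 (standard error), with an adjusted p of 0.00242 (limma, Benjamini-Hochberg over 14964 genes). Called here means an adjusted p under 0.05 together with a log2 difference past 1 either way. In the counts of listed genes and markers below, rose and fell mean called higher and called lower. In this comparison 2.71% of all genes tested were called and 1 of the 9 members. The median log2 fold change was 0 over the members and 0 over all genes. Hhex stayed called when any 1 of the 6 libraries was left out, with a log2 fold change between 4.68 and 5.97, but not when the 2 groups were fitted alone (adjusted p = 0.120). It also did not pass the study's own criterion, an unadjusted unequal-variance test of FPKM with a log2 ratio past 1.

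Tal1 was listed at 0 in all 3 MAC libraries and had 5.50, 2.71 and 8.77 FPKM in RACVECs. The groups did not overlap, yet the RACVEC values were low and the test did not reach the threshold (adjusted p = 0.0521). It did so with each library rescaled by its median shift (adjusted p = 0.0471) and with a pseudocount of 0.1 in place of 1 (adjusted p = 0.00115). Its relative Lyl1 was listed at 0 in all 6 libraries, which gives no fold change. Lmo2 had 137, 0 and 2.04 FPKM in MACs and 135, 346 and 89.8 in RACVECs. The high MAC 1 library lay among the RACVEC values, and the log2 fold change of 4.44 ± 1.47 (standard error) was not called (adjusted p = 0.110). Without MAC 1 it was 6.54 and called (adjusted p = 0.0106).

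Gata2, the usual GATA partner of Tal1 in this lineage, was present before conversion. It measured 131, 33.6 and 107 FPKM in MACs and 30.5, 113 and 13.9 in RACVECs, with overlapping groups. Mef2c measured 11.8, 9.56 and 25.3 FPKM in MACs and 6.80, 19.7 and 8.15 in RACVECs. Neither gene was called, nor were Gata3, Gata6 and Runx1, whose RACVEC values also overlapped the MAC values. Of the 13 endothelial markers, 9 rose in the same comparison, including Cdh5 and Kdr, and none fell.

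The promoters of the 3 members that differed most plainly between MACs, RACVECs and Akt-RACVECs are shown because the transduced factors bind a purine-rich Ets motif. The 250 bases before the RefSeq start of Hhex (GRCm38.p6, chr19:37434591-37434840, plus strand), of Tal1 (the upstream of its listed starts, chr4:115056176-115056425, plus strand) and of Lyl1 (chr8:84701207-84701456, plus strand) read as follows, with capitals marking the core GGAA with A or C before it and A or G after it, on either strand.
Hhex: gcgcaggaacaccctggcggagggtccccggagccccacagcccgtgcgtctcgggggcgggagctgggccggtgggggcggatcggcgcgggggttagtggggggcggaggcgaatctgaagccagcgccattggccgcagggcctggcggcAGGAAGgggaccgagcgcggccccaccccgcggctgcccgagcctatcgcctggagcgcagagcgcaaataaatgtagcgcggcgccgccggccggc
Tal1: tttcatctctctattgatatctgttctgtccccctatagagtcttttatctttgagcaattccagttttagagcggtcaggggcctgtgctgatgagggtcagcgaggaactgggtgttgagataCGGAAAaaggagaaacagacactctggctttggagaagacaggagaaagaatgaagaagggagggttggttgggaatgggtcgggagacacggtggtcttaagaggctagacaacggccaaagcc
Lyl1: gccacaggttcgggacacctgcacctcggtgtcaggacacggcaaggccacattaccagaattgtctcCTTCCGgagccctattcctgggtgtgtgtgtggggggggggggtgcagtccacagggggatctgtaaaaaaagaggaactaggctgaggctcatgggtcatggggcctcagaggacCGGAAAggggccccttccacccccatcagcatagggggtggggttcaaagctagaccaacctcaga
Hhex and this Tal1 window each held 1 match and Lyl1 held 2. Such a match was common, since 57.2% of all 32851 promoter windows of this length held at least 1. Promoters were listed for 7 of the 9 members, with 12 windows in all, of which 8 held a match. The GATA motif, GATAA with A or T before it, found in 16.6% of all windows, occurred in 1 of the 12, the Tal1 window shown, and the E-box CANNTG, found in 66.2% of all windows, occurred once in the Lyl1 window and in neither of the other windows shown. These are letters in a window and not measured binding sites.

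The next comparison asked what active Akt adds to Ets-transduced cells. Tal1 and Lyl1, the paired helix-loop-helix factors, were both higher with Akt. Tal1 FPKM was 67.1, 68.3 and 75.8 in Akt-RACVECs, against at most 8.77 in RACVECs. The 3 Akt-RACVEC libraries lay close together and far above the RACVECs, with a log2 fold change of 3.53 ± 0.71 (adjusted p = 0.0412). Lyl1 had 107, 62.1 and 124 FPKM in Akt-RACVECs and was listed at 0 in all RACVECs, so that no fold is given (adjusted p = 0.0348). In this comparison 0.261% of all genes were called, with 2 of the 9 members. Markers of other cells differed too. The 5 mesenchymal markers summed to between 1972 and 2425 FPKM in RACVECs and between 0.31 and 109 in Akt-RACVECs, with a median log2 fold change of -6.60, and 1 of the 5, Lum, fell. The megakaryocyte and mast cell markers summed to between 12.7 and 69.7 FPKM in RACVECs and between 213 and 250 in Akt-RACVECs, with 0 of the 5 tested called by limma and 3 at an unadjusted p below 0.05. Their part in the Tal1 and Lyl1 values was not tested.

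Mef2c, Hhex and Gata2 were also separated by group without being called. Mef2c FPKM was 123, 124 and 77.9 in Akt-RACVECs against at most 19.7 without it, a difference of 3.23 ± 0.77 on the log2 scale (adjusted p = 0.0615). It was called once replicate numbers entered as a block (adjusted p = 0.0431), and it passed the study's criterion. Hhex was 237, 209 and 407 FPKM with Akt, 2.13 ± 0.86 higher on the log2 scale (adjusted p = 0.231), and Gata2 was 171, 133 and 135 FPKM, a log2 fold change of 1.96 ± 0.67 (adjusted p = 0.164). All Akt-RACVEC libraries were above all RACVEC libraries for these 3 genes. The share of all genes separated in this way was not computed, in this or any other comparison, so such separation is a description only. Lmo2, Gata3, Gata6 and Runx1 overlapped between the groups. The median log2 fold change was 1.96 over the 9 members and 0 over all genes.

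Neither call was stable to leaving out libraries. Tal1 lost its call when any 1 of them was left out, with adjusted p between 0.0641 and 0.151, while its log2 fold change stayed between 3.16 and 3.86. Lyl1 lost its call without RACVEC 1 (adjusted p = 0.138), RACVEC 3 (adjusted p = 0.120) or Akt-RACVEC 1, 2 or 3 (adjusted p = 0.0549, 0.0727 and 0.0799), and kept it without RACVEC 2 (adjusted p = 0.0407). Tal1 also lost its call with a pseudocount of 0.1 (adjusted p = 0.0686), after scaling by the median shift (adjusted p = 0.0503) and when the 2 groups were fitted alone (adjusted p = 0.0919).

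Primary ECs in culture gave the levels against which the converted cells can be read. Tal1 was 41.4, 105 and 84.8 FPKM in Akt-LECs and 60.4, 102 and 102 in Akt-liver ECs. Lyl1 was 15.3, 80.1 and 152 FPKM in Akt-LECs and 25.1, 46.6 and 62.0 in Akt-liver ECs. Library 1 of each group, the one with macrophage and mesenchymal markers, was the lowest for both genes.

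Lmo2 had the highest mean FPKM of the 9 members in both groups, at 189, 1583 and 338 FPKM in Akt-LECs and 123, 1145 and 1152 in Akt-liver ECs, and library 1 was again lowest in both. Hhex was 155, 138 and 231 FPKM in Akt-LECs and 238, 341 and 384 in Akt-liver ECs, and Mef2c 35.6, 124 and 109 in Akt-LECs and 49.3, 144 and 63.1 in Akt-liver ECs. Library 1 was the lowest for Mef2c in both groups, and for Hhex in Akt-liver ECs but not in Akt-LECs. The part of the macrophage and mesenchymal cells in these low values was not tested. No member was called between Akt-LECs and Akt-liver ECs, with 0.0134% of all genes called by limma, 0 members had an unadjusted p below 0.05, and the study's criterion called 0.

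Set against MACs, the 6 cultured EC libraries (the mean of the Akt-LEC and Akt-liver EC groups) had higher levels of 6 members, namely Tal1, Lyl1, Lmo2, Hhex, Mef2c and Gata3. All genes were called at 14.8% here and at 7.3% in the upward direction. Hhex had a log2 fold change of 7.00 ± 0.74 (adjusted p = 6.29e-06), Lmo2 of 6.08 ± 1.27 (adjusted p = 0.00333) and Mef2c of 2.36 ± 0.67 (adjusted p = 0.0194). Tal1 (adjusted p = 2.03e-06) and Lyl1 (adjusted p = 0.00168) were at 0 in MACs. The median over the members was 2.36 and over all genes 0.03. The Mef2c call ended without MAC 1 (adjusted p = 0.0773) or MAC 2 (adjusted p = 0.0736), and the Lmo2 call when MACs and cultured ECs were fitted alone (adjusted p = 0.0646). Gata3 was the weakest call (1.89 ± 0.65 on the log2 scale, adjusted p = 0.0468) and did not pass with a pseudocount of 0.1 or 10, with no filter on low values, with the groups fitted alone (adjusted p = 0.0631, 0.0598, 0.0562 and 0.166), or without Akt-liver EC 1 or 3, Akt-LEC 2 or 3, or MAC 2 or 3 (adjusted p from 0.0597 to 0.325).

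RACVECs and Akt-RACVECs were then each compared with Akt-LECs, which both comparisons share. In RACVECs Tal1 was lower than in Akt-LECs by a log2 fold change of -3.56 ± 0.71 (adjusted p = 0.0373), the only member called, with 0.261% of all genes called. Lyl1, at 0 in the RACVECs, fell just short (adjusted p = 0.0502). It was called when Akt-LEC 1 was left out (adjusted p = 0.0306). Mef2c had a log2 fold change of -2.80 ± 0.77 (adjusted p = 0.159), Gata2 of -1.59 ± 0.67 and Hhex of -1.45 ± 0.86, none of them called. The Tal1 call ended without Akt-LEC 2 or 3 or without RACVEC 1, 2 or 3, with adjusted p of 0.216, 0.0713, 0.130, 0.0920 and 0.0905. It also ended with a pseudocount of 0.1 (adjusted p = 0.0804), when the 2 groups were fitted alone (adjusted p = 0.201) and by the study's criterion, which Hhex passed instead.

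In Akt-RACVECs none of the 9 members was called against Akt-LECs by limma, with 0.00668% of all genes called, 0 members had an unadjusted p below 0.05, and the study's criterion called 0. Tal1, Lyl1, Mef2c, Gata2, Gata3, Lmo2, Hhex and Runx1 overlapped between these groups, and Gata6 did not, at 22.6, 12.6 and 11.7 FPKM in Akt-RACVECs and 44.3, 41.9 and 23.7 in Akt-LECs (log2 fold change -1.19 ± 1.32, adjusted p = 0.861). The Akt-LEC libraries spread widely, however, from 15.3 to 152 FPKM for Lyl1 and from 189 to 1583 for Lmo2. Differences smaller than that spread were not detectable with 3 libraries a group.

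**Figure D2:**
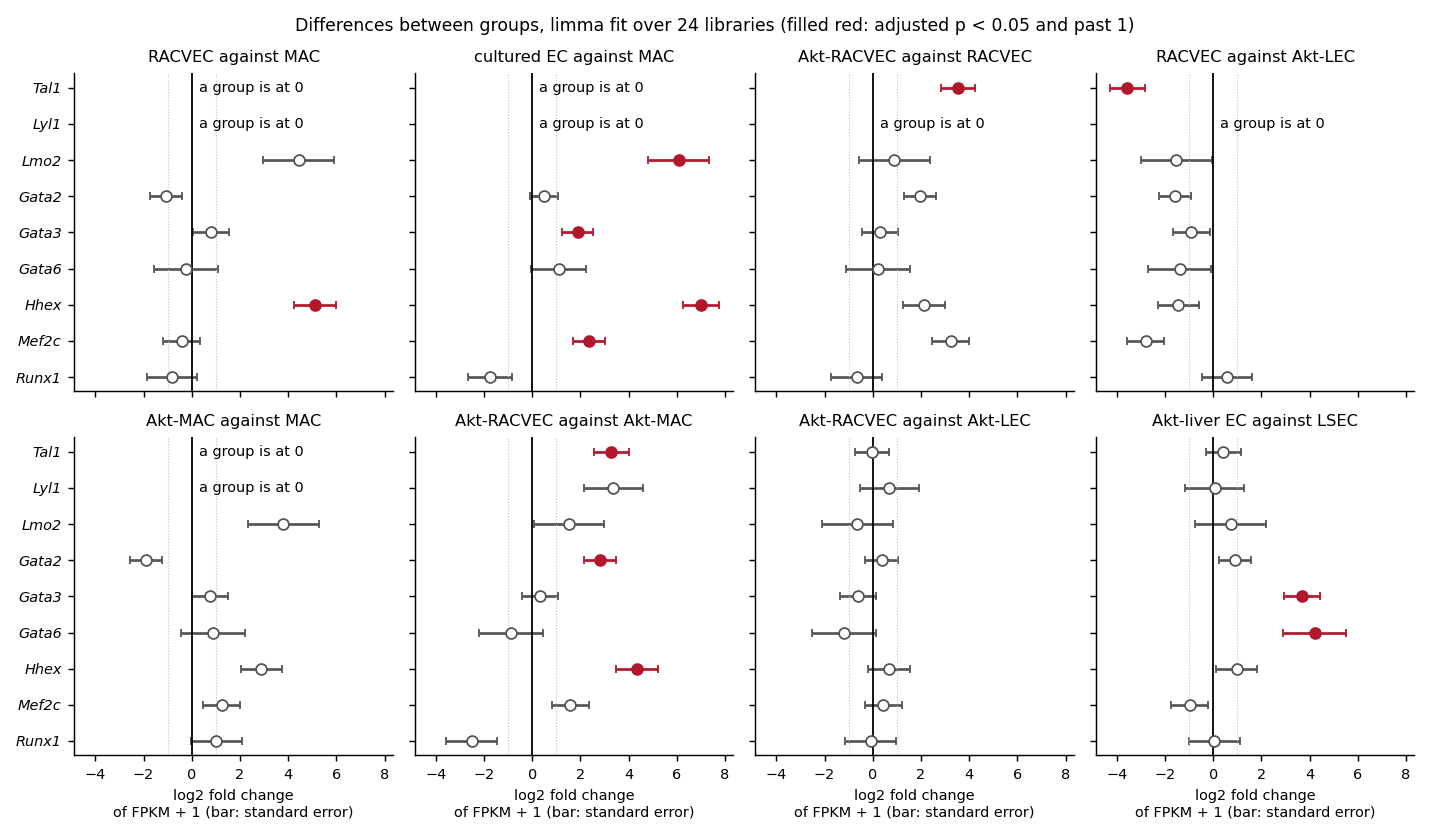
Log2 fold changes of FPKM + 1 with their standard errors (bars) for the 9 genes in 8 comparisons, from the limma fit over 24 libraries. Filled red points are called, open points are not, and genes at 0 in a whole group of the comparison are written as such. Hhex is called in RACVECs against MACs, Tal1 in Akt-RACVECs against RACVECs, and no gene in Akt-RACVECs against Akt-LECs.

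Akt alone, without the transduced Ets factors, was tested in MACs. Tal1 was the member called, from 0 in all MACs to 0.55, 8.22 and 26.5 FPKM in Akt-MACs 1, 2 and 3 (adjusted p = 0.0343), with 2.81% of all genes called. Lyl1 had 0.81, 9.78 and 38.9 FPKM, Lmo2 11.2, 213 and 430.5, and Hhex 1.77, 15.1 and 53.5 in the same order, against 0, at most 137 and at most 4.96 in MACs. Library 1 was the lowest and library 3 the highest of the Akt-MACs for all 4 genes, and Lmo2 varied widely among the MACs too.

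Macrophage markers were ordered in the same way over these 3 libraries. Csf1r was 13.46, 349 and 1161 FPKM, Adgre1 (F4/80) 56.6, 1648 and 4105, Ptprc (CD45) 4.37, 127 and 306, and Spi1 (PU.1, a macrophage factor) 11.4, 491 and 1151. Of the 16 markers, 14 rose against MACs and none fell, with a median log2 fold change of 7.80. The endothelial marker Cdh5 was 0.66, 7.36 and 1.46 FPKM, and the 13 endothelial markers summed to 85.0, 121 and 98.8, within or below the MAC range of 103 to 219. Tal1, Lyl1, Lmo2 and Hhex in Akt-MACs were therefore measured beside macrophage transcripts and with summed endothelial markers no higher than in MACs. Single endothelial markers went both ways against MACs, with log2 fold changes from -1.57 for Egfl7 to 2.28 for Pecam1, and none was called. The megakaryocyte and mast cell markers summed to 264, 703 and 219 FPKM in Akt-MACs 1, 2 and 3, and 1 of the 5 tested, Pf4, rose against MACs. How much of each member came from such cells was not tested.

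The Tal1 call ended without MAC 1, 2 or 3 (adjusted p = 0.0839, 0.107 and 0.0554), Akt-MAC 2 (adjusted p = 0.153) or Akt-MAC 3 (adjusted p = 0.183), with a pseudocount of 10 (adjusted p = 0.281) and when the 2 groups were fitted alone (adjusted p = 0.520). Without Akt-MAC 1 both Hhex (log2 fold change 4.03, adjusted p = 0.00285) and Lmo2 (log2 fold change 5.34, adjusted p = 0.0408) were called as well. Both were also called without MAC 1 (adjusted p = 0.0390 for Hhex and 0.0331 for Lmo2).

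Of the other members, Runx1, Gata6 and Gata3 were also lowest in Akt-MAC 1 and highest in Akt-MAC 3, and Mef2c and Gata2 were not. Mef2c was 40.9, 44.2 and 23.7 FPKM, lowest in library 3. Gata2 was 14.1, 39.1 and 14.1 FPKM, 2 of the 3 below the lowest MAC, with a log2 fold change of -1.91 ± 0.67 that was not called (adjusted p = 0.157). Runx1, which macrophages use, was 32.8, 41.6 and 65.8 FPKM and already 9.31, 23.2 and 45.2 in MACs, where Csf1r was below 1 FPKM. Gata6 reached 231 FPKM in Akt-MAC 3 against 4.29 and 20.2 in the other 2. That library also held mesothelial markers, with Wt1 at 295, Msln at 336 and Upk3b at 1886 FPKM, and Gata4 at 340 FPKM. Their part in the Gata6 value was not tested.

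With Akt present on both sides, cells with and without the transduced Ets factors were compared. Akt-RACVECs were above Akt-MACs for Tal1 (log2 fold change 3.28 ± 0.71, adjusted p = 0.00371), Hhex (4.34 ± 0.86, adjusted p = 0.00207) and Gata2 (2.80 ± 0.67, adjusted p = 0.00680), and these 3 were called where 19.5% of all genes were. Each of the 3 stayed called whichever library was left out, but Tal1 (adjusted p = 0.122) and Hhex (adjusted p = 0.0800) did not when the 2 groups were fitted alone. Lyl1 (log2 fold change 3.37 ± 1.23, adjusted p = 0.0546) fell short and was called without Akt-MAC 3 (adjusted p = 0.0248). Lyl1 and Mef2c both passed the study's criterion here. Runx1 had a log2 fold change of -2.51 ± 1.05 (adjusted p = 0.0890).

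Whether Akt acts differently on a member with and without the transduced Ets factors was tested as an interaction, which shares no library between its arms. No member was called by limma, where 0.1% of all genes were. Gata2 came nearest and was the 1 member with an unadjusted p below 0.05, with a difference of Akt effects of 3.87 ± 0.95 on the log2 scale (adjusted p = 0.104), since it was higher with Akt in RACVECs and lower with Akt in MACs in means. Without RACVEC 2, whose Gata2 of 113 FPKM was the highest of its group, this difference was 4.67 and was called (adjusted p = 0.0350).

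**Figure D3:**
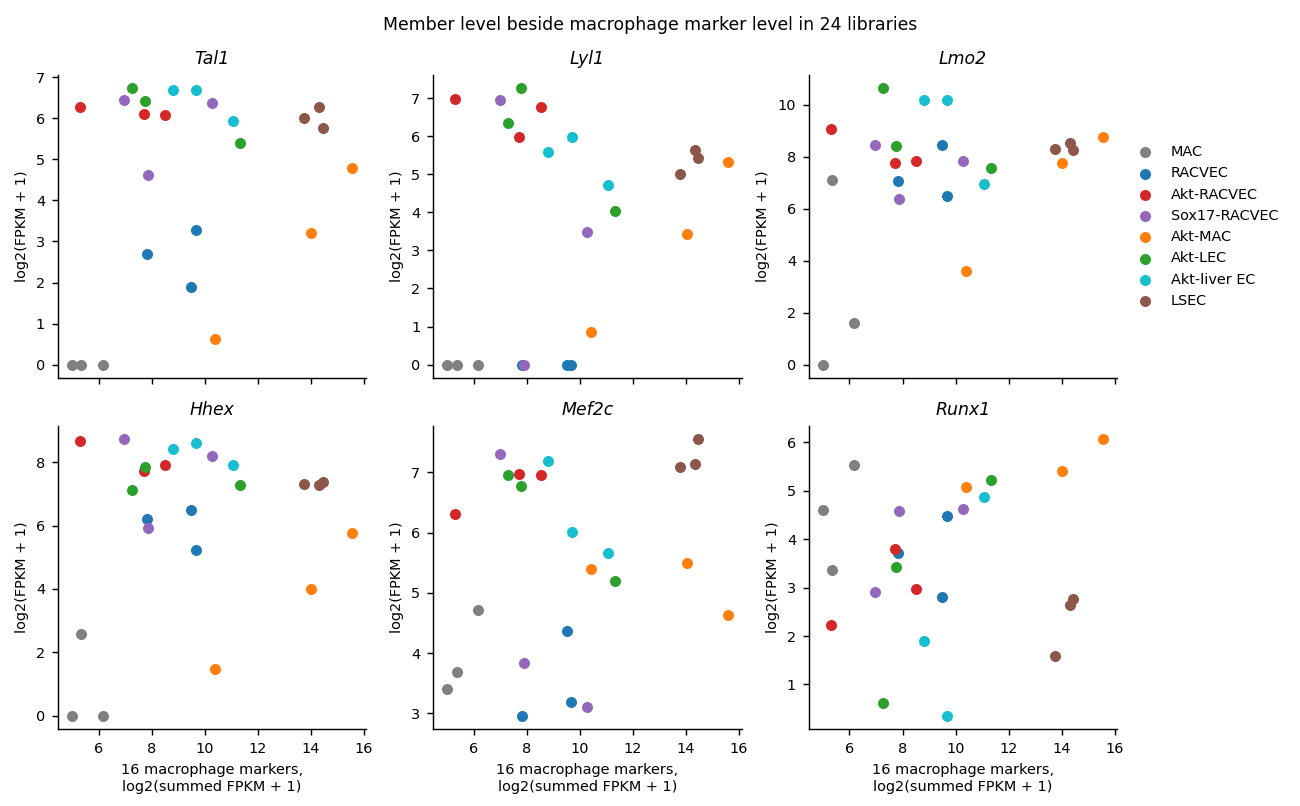
Each panel plots log2(FPKM + 1) of one gene (vertical axis) against log2 of the summed FPKM + 1 of 16 macrophage markers (horizontal axis) in 24 libraries, coloured by group. Tal1, Lyl1, Lmo2 and Hhex climb with the macrophage markers over the 3 Akt-MAC libraries, while Akt-RACVEC libraries hold high Tal1, Lyl1 and Hhex at summed macrophage markers of at most 364 FPKM.

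LSECs, sorted from liver without culture, held high endothelial and high macrophage markers at once. Csf1r was 1120, 1071 and 578 FPKM, Spi1 267, 267 and 142, and the Kupffer cell lectin Clec4f 4942, 4169 and 2965. Alb (hepatocyte albumin) at 1211 to 7975 FPKM was present as well, and the erythroid markers summed to between 11348 and 12971. The endothelial markers Cdh5, at 2928, 2338 and 1805 FPKM, and Pecam1, at 2778, 2233 and 2459 FPKM, lay within the ranges over the 6 cultured EC libraries.

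Tal1 was 53.5, 75.9 and 63.8 FPKM in LSECs, Lyl1 42.0, 48.6 and 31.3, Lmo2 309, 370.4 and 315 and Hhex 166, 155 and 159. Tal1, Lyl1 and Lmo2 overlapped the Akt-liver ECs, and Hhex lay below all 3 of them without being called (adjusted p = 0.411). Mef2c, at 186, 140.1 and 136 FPKM, had its highest group mean here. The summed macrophage markers were 22324, 20496 and 13834 FPKM in LSEC 1, 2 and 3. Lyl1, Gata2, Mef2c and Runx1 were lowest in LSEC 3, the library with the lowest sum, Tal1, Lmo2, Gata6 and Hhex were not, and Gata3 was 0 in LSEC 1 and 3.

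A scaling puts these levels beside the macrophage content. If each macrophage marker of an LSEC library carried members in the ratio seen in Akt-MAC 3, the library with the most macrophage signal and little endothelial signal, the median over 16 markers would account for 17.7% of the mean LSEC value of Tal1, 14.3% of Hhex, 10.9% of Gata2 and 6.62% of Mef2c, but 41.0% of Lyl1 and 55.7% of Lmo2. Single markers gave very different answers, from 0.936 to 104 FPKM of Tal1 in LSEC 1, where 53.5 were measured. The same ratio would predict far more Runx1, Gata6 and Gata3 than LSECs held. It gave 28.2, 99.0 and 3.39 FPKM against means of 4.33, 1.04 and 0.333. LSECs thus did not share the member-to-marker ratios of Akt-MAC 3 for these genes. Akt-MAC 3 also held the mesothelial markers given above, and their part in its ratios was not tested. The scaling is a description that assumes like macrophages in both preparations, and Kupffer cells were not measured on their own. For Clec4f the preparations were not alike. The 5 Kupffer cell markers summed to 0 in MACs, and Clec4f had a log2 fold change of 0 in Akt-MACs against MACs. Akt-MACs thus lacked the Clec4f that LSECs held. In Akt-MAC 3, however, 4 of the 5 Kupffer cell markers were above 0, and they summed to 14814.5 FPKM.

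Gata3 and Gata6 were higher in cultured than in uncultured liver ECs. Gata3 was 13.8, 9.70 and 26.4 FPKM in Akt-liver ECs and 0, 1.00 and 0 in LSECs, with a log2 fold change of 3.69 ± 0.75 (adjusted p = 0.000968). Gata6 was 40.8, 14.9 and 55.1 FPKM in Akt-liver ECs and 0, 0.81 and 2.30 in LSECs, with a log2 fold change of 4.20 ± 1.32 (adjusted p = 0.0195). For both genes every cultured library was above every LSEC library. These were the 2 members called, both upward, where 27% of all genes were called and 14.1% upward, so their number was no more than the share of all genes would give. The median log2 fold change was 0.72 over the members and 0.08 over all genes.

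The Gata6 call ended without Akt-liver EC 1 (adjusted p = 0.0520), Akt-liver EC 3 (adjusted p = 0.0691) or LSEC 1 (adjusted p = 0.0747), and Gata3 kept its call in all 6 such fits. By the study's criterion neither passed. Gata4, a GATA relative known in liver sinusoidal endothelium, was 426, 531 and 543 FPKM in LSECs against 214, 11.9 and 9.20 in Akt-liver ECs, a difference that was not called (log2 fold change -4.03 ± 1.59, adjusted p = 0.0571). Culture, active Akt and the sort differ together between these groups and cannot be told apart.

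Sox17-RACVECs were divided by library. In libraries 1 and 3 Tal1 was 81.4 and 23.5 FPKM, Lyl1 10.3 and 0, Mef2c 7.57 and 13.2, and Hhex 291 and 60.2. The library labelled Sox17-RACVEC 2, which lacked Etv2, had 86.0, 122, 156 and 421 FPKM of these 4 genes in the same order, and 5144 FPKM of Pecam1 against 586 and 714. Its Lyl1 lay within the range of the Akt-RACVECs and its Mef2c above it, whereas Mef2c in libraries 1 and 3 lay within the RACVEC range of 6.80 to 19.7 FPKM.

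With all 3 libraries no member was called by limma against RACVECs, where 0.00668% of all genes were called, or against Akt-RACVECs, where 0% were called. In each of the comparisons 2 members had an unadjusted p below 0.05, Tal1 and Lyl1 in the former and Lyl1 and Mef2c in the latter, and the study's criterion called 0. These comparisons share the Sox17-RACVEC libraries. Tal1 was above the RACVECs in 3 of 3 libraries, by 3.18 ± 0.71 on the log2 scale (adjusted p = 0.262) and, without the library labelled Sox17-RACVEC 2, by 2.86 (adjusted p = 0.483). Without that library Lyl1 was lower than in Akt-RACVECs (log2 difference -4.82, adjusted p = 0.0245) and so was Mef2c (log2 difference -3.28, adjusted p = 0.00589). These 2 members were called where 2.27% of all genes were. The Mef2c difference from RACVECs turned from 1.23 to -0.05 without it, and no member was called against RACVECs, with 0.0601% of all genes called.

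**Figure D4:**
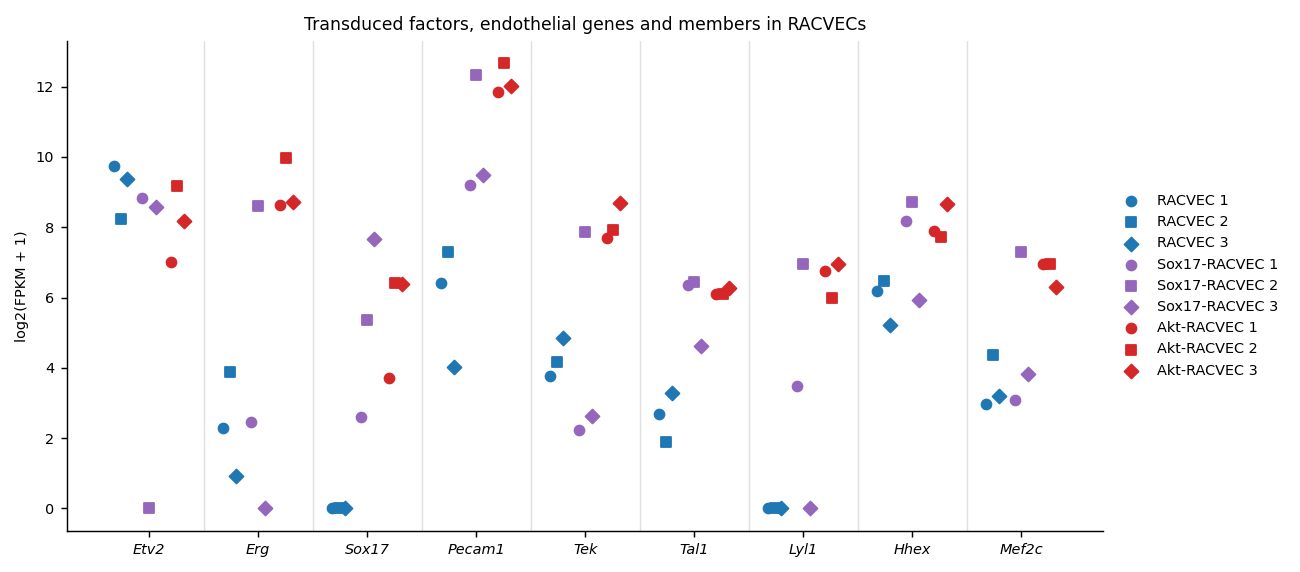
Log2(FPKM + 1) of Etv2, Erg, Sox17, Pecam1, Tek, Tal1, Lyl1, Hhex and Mef2c in the 3 RACVEC, 3 Sox17-RACVEC and 3 Akt-RACVEC libraries, with 1 point per library and its number given by the marker shape. The library labelled Sox17-RACVEC 2 is at 0 for Etv2 and lies with the Akt-RACVECs for Erg, Pecam1, Tek, Lyl1 and Mef2c.

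Runx1 had its highest group means in amniotic cells without transduced Ets factors, at 46.8 ± 17.1 FPKM (SD, n = 3) in Akt-MACs and 25.9 ± 18.1 in MACs. It was 12.2, 6.02 and 21.3 FPKM in RACVECs, 6.90, 13.0 and 3.68 in Akt-RACVECs and 5.76, 5.23 and 2.01 in LSECs. Among cultured ECs it was 36.3 and 28.4 FPKM in Akt-LEC 1 and Akt-liver EC 1, and 0.28 to 9.80 in the other 4. The high libraries were the 2 with macrophage and mesenchymal markers, whose part in the values was not tested. Cultured ECs against MACs gave a log2 fold change of -1.76 ± 0.91 (adjusted p = 0.177). Without Akt-liver EC 1 it was -2.39 and called (adjusted p = 0.0465), and with libraries 2 and 3 alone of both cultured EC groups, which leaves out the 2 highest values, it was -2.92 and called (adjusted p = 0.00907), where 16.3% of all genes were.

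Several transcripts were summed for 3 members. Lmo2 had 4 RefSeq transcripts, of which NM_001142335 carried a median of 71.4% of the FPKM over the 22 libraries with at least 10 FPKM. Mef2c had 2, with NM_001170537 at a median of 68.7% over 20 libraries. Runx1 had 4, and the share of NM_001111023 ran from 0.141% to 97.8% over 12 libraries, so that the split of Runx1 between transcripts varied too much to describe a main form. Taking the highest Runx1 transcript alone, the log2 fold change between Akt-MACs and MACs was -0.08 instead of 1.02.

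The order of the 8 groups by mean level was seldom resolved. Of the 63 neighbouring pairs of groups over the 9 genes, 5 had libraries that did not overlap. These were RACVECs over MACs for Tal1, Akt-MACs over MACs for Lyl1, Sox17-RACVECs over LSECs for Gata6, LSECs over RACVECs for Hhex, and LSECs over Akt-RACVECs for Mef2c. The share of such pairs over all genes was not computed, so the count is a description and no trait of these genes. Gata2 had its highest mean in Akt-RACVECs, at 146 ± 21.2 FPKM (SD, n = 3), and its lowest in Akt-MACs, at 22.4 ± 14.4. Gata3 was low throughout, with no library above 26.4 FPKM.

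The partners and relatives of these factors were examined as a list of 36 genes, of which 30 were tested. In RACVECs against MACs 1 rose, Zfpm2 (a GATA cofactor, log2 fold change 1.78 ± 0.32, adjusted p = 0.00449), and none fell. In Akt-RACVECs against RACVECs none of the 30 was called by limma, with 7 at an unadjusted p below 0.05. In Akt-MACs against MACs 1 fell, Ssbp3 (a partner of Ldb1, log2 fold change -1.60 ± 0.38, adjusted p = 0.0265). The median log2 fold changes of the list in these 3 comparisons were -0.23, 0.08 and -0.01, beside 0, 0 and 0.09 over all genes.

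In cultured ECs against MACs, where 14.8% of all genes were called, 4 of the 30 rose and 5 fell. Those that rose were Ldb2 (the Ldb1 relative, log2 fold change 5.11 ± 0.97), Cbfa2t3 (a corepressor bound by Tal1, 3.14 ± 1.08), Zfpm2 (1.89 ± 0.28) and Zfpm1 (1.29 ± 0.43). Among those that fell were Id4 (an inhibitor of E proteins, -4.92 ± 1.12), Runx2 (-2.97 ± 0.78) and Lmo4 (-1.86 ± 0.53). The general partners were broadly expressed, with group means of 251 to 384 FPKM for Ldb1, 99.8 to 194 for Tcf3, 166 to 471 for Tcf4 and 207 to 400 for Cbfb, the Runx partner. Mef2a and Mef2d were likewise above 60 FPKM in every group mean. Lmo1, a relative of Lmo2 best known from neural tissue and T-cell leukaemia, had group means of 0 in LSECs and 22.1 to 237 elsewhere.

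In Akt-RACVECs against Akt-MACs, where 19.5% of all genes were called and the list's share was near that, 3 of the 30 rose, Ldb2 (5.92 ± 1.11), Cbfa2t3 (4.65 ± 1.25) and Zfpm2 (2.02 ± 0.32), and 4 fell, Id4 (-4.09 ± 1.29), Lmo4 (-3.79 ± 0.61), Id2 (-2.92 ± 0.72) and Ssbp2 (-2.63 ± 0.70). Of the 12 tested of 19 further haematopoietic genes, 4 rose in Akt-MACs against MACs, namely Spi1, Vav1, Irf8 and Ikzf1, and none was called by limma in RACVECs against MACs or in Akt-RACVECs against RACVECs, with 5 and 4 at an unadjusted p below 0.05. Gfi1, Gfi1b, Myb, Klf1 and Nfe2 had group means of at most 3.35 FPKM in every group. Of 19 described endothelial targets of these factors, 5 rose in RACVECs against MACs (Kdr, Cdh5, Pecam1, Egfl7 and Esam) and 3 in Akt-RACVECs against RACVECs (Pecam1, Emcn and Lyve1), and none fell in either.

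Over all 24 libraries the genes with profiles most like each member were named by the Pearson correlation of log2(FPKM + 1) with 11699 genes, as a description only, since all libraries and groups are shared. Tal1 was most like Prkch (0.957), Rin3 (0.934) and Hhex (0.924), and Hhex most like Prkch (0.945), Scarf1 (0.941) and Grap (0.939). Lyl1 was most like Arhgap27, Stab1 and Ets2 (0.905, 0.904 and 0.904), Lmo2 most like Hhex, Grap and Inpp4b (0.856, 0.847 and 0.837), and Mef2c most like Gimap9 (0.917). The highest values were 0.781 for Gata2, 0.820 for Gata3, 0.844 for Gata6 and 0.876 for Runx1.

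On the NCBIM37 assembly, the mm9 build named in the submitters' processing notes, GENCODE places Tal1 at chr4:114729031-114744360, Lyl1 at chr8:87225356-87228614, Lmo2 at chr2:103798143-103822035, Gata2 at chr6:88143885-88157024, Hhex at chr19:37507377-37515218 and Mef2c at chr13:83643033-83806684, all on the plus strand. Gata3 lies at chr2:9778705-9811661 and Runx1 at chr16:92601712-92826311, both on the minus strand, and the FPKM are per RefSeq transcript and so cover exons alone.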

How the data were processed

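Polyadenylated RNA was sequenced as paired-end reads, and the reads were mapped by the authors with TopHat and quantified with Cufflinks on the mm9 build, with upper-quartile normalization and bias correction, with versions not given in the sources used here. The values deposited are FPKM per RefSeq transcript, 27583 per library, with no counts, so sequencing depth is unknown and no counting error can be given. An FPKM of 0 is reported as listed at 0. FPKM summed to between 1689486 and 2317294 per library, and 12356 to 14985 genes were above 0. No 2 libraries were identical. Transcripts were joined to current mouse symbols by RefSeq accession and summed (26934 joined, 649 without a symbol kept under their accession).

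The 14964 genes averaging 1 FPKM or more were fitted as log2(FPKM + 1) over all 24 libraries and 8 groups with limma 3.58.1 in R 4.3.3, with a trended variance and Benjamini-Hochberg adjustment over all genes tested. Such folds understate changes of low genes. The script was tested on simulated data. Tables and plots were made with Python 3.11.15. The 9 members were named whatever they showed, the called genes of the partner and haematopoietic lists by size, and the 3 genes most like each member by correlation. The members and lists were chosen with earlier results of these data known. Alternatives were other pseudocounts, filters, scalings, the groups compared alone, the study's criterion, the highest transcript alone and each library left out. Leaving out libraries with macrophage signal, and pairs named in file headers, was chosen after seeing the data. Replicate numbers were not taken as pairs. Of 14 pairs of groups, 0 had all same-numbered correlations of deviations above 0.1. Single correlations ran from -0.49 to 0.57, the highest for Akt-LEC 1 and Akt-liver EC 1. A rule over all numbers cannot show that no libraries were paired. Replicates are isolates as the study describes them, and whether some share a litter is not given in the sources used here. Promoter sequences are from RefSeq (GRCm38.p6). No protein sequence was used here.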

Additional observations from a re-analysis of the deposited data

How the results depend on the processing

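With 3 libraries a group and wide spread within Akt-LECs, Akt-MACs and Sox17-RACVECs, moderate differences were not detectable. The count of members called moved in 47 of 184 alternative fits. Moved means a change to or from 0, or by a ratio larger than that of 3 to 2. Smaller changes, such as from 6 to 5 or 4, are not among the 47. Fold changes were followed only where the main log2 fold change was at least 1 either way. Of 890 such alternative fold changes 800 kept their direction and side of the threshold, 56 lost a call, 28 gained one and 6 turned direction. In RACVECs against MACs (1 member called) a pseudocount of 0.1 and scaling by the median shift each gave 2, and the groups alone and the study's criterion each gave 0. In Akt-RACVECs against RACVECs (2) a pseudocount of 0.1, scaling by the median shift and the groups alone each gave 1, and the study's criterion 3 with Mef2c. In Akt-MACs against MACs (1) a pseudocount of 0.1 gave 2, and a pseudocount of 10, the groups alone, the study's criterion and Akt-MAC 1 as the only Akt-MAC library, which is also the lowest for Tal1, each gave 0. In Akt-RACVECs against Akt-MACs (3) a pseudocount of 10 and the study's criterion gave 5 and the groups alone 1. In RACVECs against Akt-LECs (1) a mean FPKM of at least 10 and cultured EC libraries 2 and 3 alone each gave 2, and the groups alone 0. In cultured ECs against MACs (6) both other pseudocounts and both other filters gave 5 and the groups alone 4. In Akt-liver ECs against LSECs (2) a pseudocount of 10, a mean FPKM of at least 10 and cultured EC libraries 2 and 3 alone each gave 1 and the study's criterion 0. Fewer samples in the fit of the groups alone leave less to estimate the spread. Gata3 averaged 8.12 FPKM over the 24 libraries, so it was not tested at a mean FPKM of at least 10 and could not be called there. The causes of the other changes were not tested.

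Leaving out 1 library gave 0 to 1 members called in Akt-RACVECs against RACVECs and in the interaction, 0 to 2 in RACVECs against Akt-LECs and in Sox17-RACVECs against Akt-RACVECs, 0 to 3 in Akt-MACs against MACs, 1 to 2 in RACVECs against MACs and in Akt-liver ECs against LSECs, 3 to 4 in Akt-RACVECs against Akt-MACs, 4 to 6 in cultured ECs against MACs and 0 in the other 3 comparisons. Among the fold changes of at least 1 either way in the main fit, directions turned for uncalled values only. The Runx1 log2 fold change in Akt-MACs against MACs was -0.077 with its highest transcript alone. That of Gata6 in RACVECs against Akt-LECs was 0.11 by the study's criterion and ran from -2.77 to 0.50 over the fits without 1 library. That of Lmo2 in Akt-RACVECs against Akt-MACs ran from -0.023 to 2.55 over such fits, and its interaction was 0.18 with Akt-MAC 1 alone. That of Mef2c in Sox17-RACVECs against RACVECs ran from -0.046 (without the library labelled Sox17-RACVEC 2) to 2.05.

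With the replicate number as a block, though the numbers are not known to be pairs, 2 members were called in RACVECs against Akt-LECs in place of 1. In the same fit Mef2c was called in Akt-RACVECs against RACVECs (adjusted p = 0.0431). Blocking the 2 pairs of MAC and RACVEC libraries named alike in the file headers left 1 member called in RACVECs against MACs.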
